A study of Mus musculus with 6 samples.

Results

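The 35 genes described here run the cell division cycle. They are the measured ones of 36 listed gene symbols, chosen by name from the platform annotation, out of 18193 genes on the array. Each gene was read by its brightest probe set among those assigned to a single gene, and Ccnb1 was not analysed here. The list holds 15 measured genes of mitosis, 10 of DNA replication and nucleotide synthesis, 7 cyclins and kinases of the G1 phase and 3 inhibitors of cyclin-dependent kinases (CDKs).

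RNA came from pancreatic islets, the clusters of hormone-secreting cells of the pancreas, taken from male CD1 mice aged 8 weeks. After a night in medium the islets received 200 uM CMPF, a circulating furan dicarboxylic acid, or 0.1% ethanol as vehicle, for 24 hours. There were 3 arrays with CMPF and 3 with vehicle, each set carrying the numbers 1 to 3. What a number stands for (an animal, a pool of animals or an islet preparation) is not in the labels. Every p-value below therefore weighs a difference against the scatter of these arrays, and part of that scatter may be technical. No allele or transgene is named.

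A cell divides by passing through ordered phases. D-type and E-type cyclins with their kinases open the way out of G1, the MCM helicase and its partners copy the DNA in S phase, and Cdk1 with cyclins A and B drives mitosis, while CDK inhibitors hold cells in G1. Endocrine cells of adult islets rarely divide, and in mouse beta cells cyclin D2 and Cdk4 are known to be needed for growth after birth. Many mitotic genes are known to be repressed in resting cells through a promoter element called CHR, and many S phase genes through E2F sites.

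The promoters of 5 of these genes are shown because they hold the letters of these elements and belong to genes whose levels, given below, varied widely between arrays of 1 treatment. Each line gives the 160 bases just before the transcription start in RefSeq's GRCm38.p6 annotation. Capitals mark the CHR letters TTTGAA and the E2F-type letters TTTGGCGC, TTTCCCGC, TTTCGCGC and TTTGCCGC, each searched on both strands.

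Cdk1, chr10:69352913-69353072, minus strand: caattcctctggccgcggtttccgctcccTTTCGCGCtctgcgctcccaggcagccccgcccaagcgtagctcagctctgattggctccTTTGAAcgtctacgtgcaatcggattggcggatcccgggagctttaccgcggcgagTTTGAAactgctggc
Cdc20, chr4:118437344-118437503, minus strand: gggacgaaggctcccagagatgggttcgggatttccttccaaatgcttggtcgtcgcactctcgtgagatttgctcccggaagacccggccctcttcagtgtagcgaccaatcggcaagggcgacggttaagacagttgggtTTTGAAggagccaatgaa
Top2a, chr11:99024190-99024349, minus strand: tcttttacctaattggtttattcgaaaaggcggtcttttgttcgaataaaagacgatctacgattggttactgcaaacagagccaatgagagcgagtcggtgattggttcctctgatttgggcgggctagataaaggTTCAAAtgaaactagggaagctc
Mcm5, chr8:75109349-75109508, plus strand: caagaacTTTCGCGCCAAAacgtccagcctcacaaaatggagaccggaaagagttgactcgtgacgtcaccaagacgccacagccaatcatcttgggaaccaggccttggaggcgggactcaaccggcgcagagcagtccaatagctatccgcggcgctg
Mcm6, chr1:128359706-128359865, minus strand: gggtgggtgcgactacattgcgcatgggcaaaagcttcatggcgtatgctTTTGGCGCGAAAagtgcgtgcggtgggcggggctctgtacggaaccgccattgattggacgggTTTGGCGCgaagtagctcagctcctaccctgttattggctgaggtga

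Over the windows used, from 250 bases before to 50 after a start, 27 of the 36 listed genes had an entry. TTTGAA was found in 9 of 12 mitotic genes, against 17.9% of all 32851 windows. In the replication genes it was found in 1 of 9, Mcm2. E2F-type letters were found in 4 of 9 replication genes, namely Mcm3, Mcm5, Mcm6 and Mcm7, and in 1 mitotic gene, Cdk1, against 2.26% of all windows. In Mcm5 and Mcm6 a match on each strand overlapped the other, so that they form 1 longer run of capitals. The letters CCAAT, on either strand, were found in 11 of 12 mitotic and 8 of 9 replication genes, against 37.4% of all windows. Neither TTTGAA nor the E2F-type letters were found in the 4 G1 genes and 2 inhibitors with an entry. In Top2a the capitals read TTCAAA because the match lies on the opposite strand. Letters in a window do not show that a factor binds there.

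None of the 35 genes was shown to differ with CMPF. The limma fit over all genes, with Benjamini-Hochberg adjustment, called 0 of 35 members and 0 of 18193 genes (0%) at 0.05, and adjusted p was 0.99995 for every member. At an unadjusted p under 0.05 it gave 0 members, where 1.13% of all genes passed, and 0 members with the replicate number as a block, where 3.8% did. The smallest unadjusted limma p was 0.190, for Plk1. The members' median difference, CMPF minus vehicle, was -0.02 log2 units, beside 0.0018 over all genes. Differences ran from -0.35 for Birc5 to 0.18 for Plk1, and 33 of 35 lay within 0.2 log2 units, as did 92% of all genes. For 24 of 35 members the 95% interval stayed within 1.5-fold either way, against 89.7% of all genes. With the replicate number as a block it did so for 33 of 35 members, all but Birc5 and Bub1b, against 96.9% of all genes. Where the interval reached further, these arrays did not exclude a change of that size. The members' standard errors had a median of 0.163, against 0.116 over all genes.

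**Figure D1:**
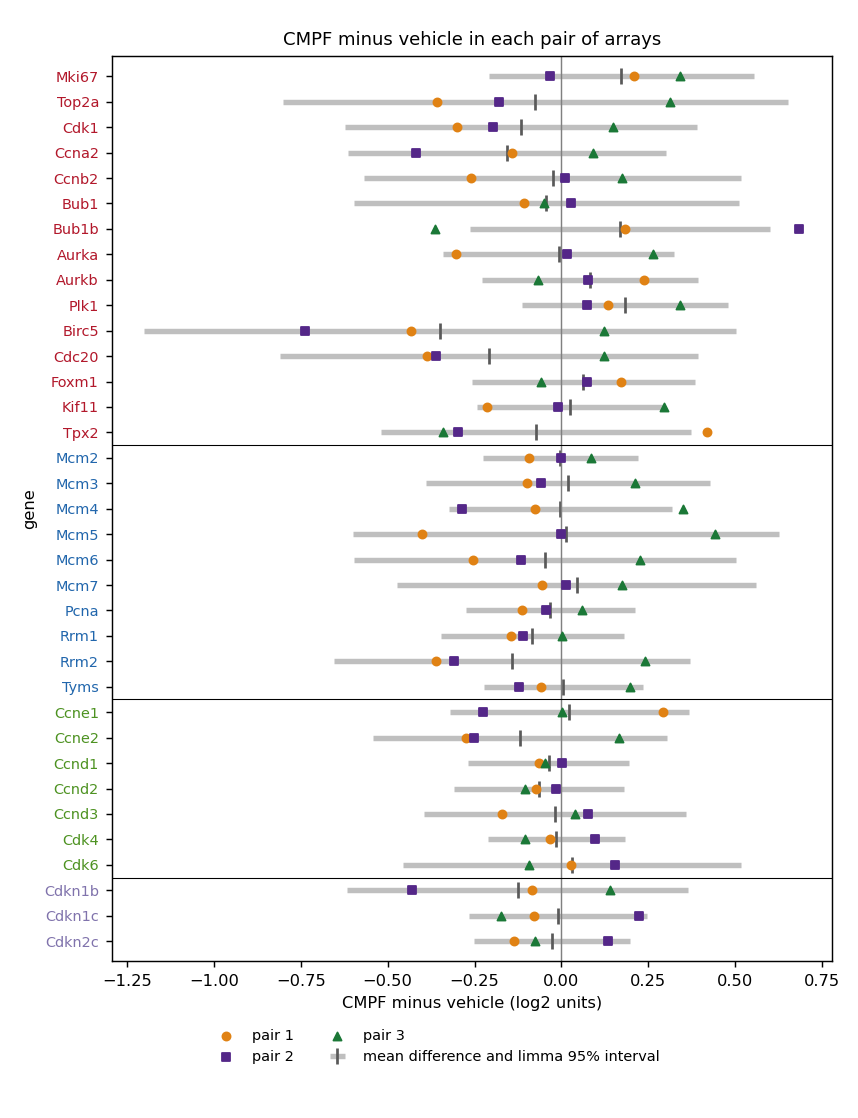
CMPF minus vehicle in log2 units (horizontal axis) for each of 35 genes (rows, coloured by role: red mitotic, blue DNA replication, green G1 cyclins and kinases, purple CDK inhibitors). Symbols are the 3 pairs of arrays of the same number, the dark tick is the mean difference and the grey bar its limma 95% interval, which covers 0 for every gene. In the blue rows the circle of pair 1 lies left of 0 and the triangle of pair 3 right of 0 in all 10 genes.

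Arrays with the same number in the 2 groups resembled each other, and are called a pair. With few exceptions the direction of a member's difference was not shared by the pairs. Plk1 was higher with CMPF in all 3 pairs, as were 11.8% of all genes, and Ccnd2 was lower in all 3, as were 11.1% of all genes. These were 1 of 35 members in each direction, below both shares. In no member did the CMPF and vehicle values fail to overlap, where 2.41% of all genes lay wholly higher and 2.11% wholly lower with CMPF. These 2 names and the patterns between pairs given below were chosen after the values were seen.

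Among the mitotic genes the median difference was -0.03, with pair medians of -0.14, -0.0091 and 0.12. Mki67, the common marker of dividing cells, read 4.92, 4.98 and 5.42 on the log2 scale with CMPF, against 4.71, 5.02 and 5.08 with vehicle. Its array 3 was the highest in both groups, and the groups overlapped (5.11 ± 0.27 with CMPF and 4.94 ± 0.20 with vehicle, SD, n = 3 each; difference 0.17, SE 0.163). Top2a, the topoisomerase that untangles replicated DNA, read 4.83, 5.12 and 6.05 with CMPF, against 5.18, 5.30 and 5.74 with vehicle. CMPF arrays 1 and 2 lay below every vehicle array and CMPF array 3 above every one, so the mean difference was -0.08 (SE 0.310).

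Cdk1, the kinase that starts mitosis, read 5.58, 5.76 and 6.40 with CMPF, against 5.88, 5.96 and 6.26 with vehicle (difference -0.12, SE 0.216). Its partner Ccna2, cyclin A2, read 5.86, 5.63 and 6.39 with CMPF, against 6.001, 6.05 and 6.30 with vehicle (difference -0.16, SE 0.195). Both repeated the order seen in Top2a, with 2 CMPF arrays below all vehicle arrays and the third above them.

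Cdc20, the activator of the ubiquitin ligase that ends metaphase, read 5.70, 5.94 and 6.70 with CMPF, against 6.09, 6.30 and 6.57 with vehicle (difference -0.21, SE 0.256). Birc5, or survivin, part of the chromosomal passenger complex, read 4.41, 4.79 and 5.77 with CMPF, against 4.84, 5.53 and 5.65 with vehicle. That was the largest difference of any member, -0.35 (SE 0.363), with a 95% interval from -1.20 to 0.50. The pair differences of Birc5 were -0.43, -0.74 and 0.12, so pair 3 again ran against the other pairs.

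These means rested on CMPF array 3. Without it, 6 members read lower with CMPF at an unadjusted limma p under 0.05, where 2.17% of all genes did. They were Cdk1 (-0.36), Ccna2 (-0.37), Birc5 (-0.74), Cdc20 (-0.50), Rrm2 (-0.38) and Ccne2 (-0.33), and none passed adjustment (limma adjusted p = 0.978 for each). That fit kept vehicle array 3, the highest vehicle array for each of them but Rrm2, so its groups were no longer matched by number. Without CMPF array 2 there was 1 such member, Plk1, higher with CMPF (0.30, limma adjusted p = 0.99989), where 0.852% of all genes were. Leaving out any other array, or any pair, pair 3 included, gave 0.

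Plk1, a kinase of centrosome and spindle assembly, read 5.90, 5.66 and 6.08 with CMPF, against 5.77, 5.58 and 5.74 with vehicle (difference 0.18, SE 0.127). Each CMPF array was above its own pair, by 0.13, 0.07 and 0.34, but CMPF array 2 was below 2 of the vehicle arrays. Bub1b, a spindle checkpoint kinase, read 5.48, 5.57 and 5.05 with CMPF, against 5.30, 4.89 and 5.41 with vehicle (difference 0.17, SE 0.184). Its pairs spread from -0.36 to 0.69, the widest of the list. Tpx2, which activates Aurka on the spindle, read 6.17, 5.47 and 5.78 with CMPF, against 5.75, 5.77 and 6.12 with vehicle (difference -0.07, SE 0.190). Both genes ran against the order seen in Cdk1, with CMPF array 3 below vehicle array 3.

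Foxm1, a transcription factor of mitotic genes, read 7.03, 7.08 and 6.67 with CMPF, against 6.85, 7.01 and 6.73 with vehicle (difference 0.06, SE 0.137). It was lowest on array 3 in both groups, where Cdk1, Top2a and Cdc20 were highest. Aurkb, the kinase of the chromosomal passenger complex, read 3.05, 3.06 and 3.21 with CMPF, against 2.82, 2.98 and 3.28 with vehicle (difference 0.08, SE 0.133). With no detection call in the values, a dim gene cannot be told from an undetected one. Aurkb, Bub1 and Kif11, with Tyms 4 of 35 members, lay below 4.53, the lower quartile of all gene means (25% of genes by definition). Below the median gene mean of 6.42 (50% of genes) lay 20 of 35 members, 14 of them mitotic. The other members, Ccnb2, Bub1, Aurka and Kif11, differed by between -0.04 and 0.02.

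Array 3 was the highest of its group, with CMPF and with vehicle alike, for 9 of 15 mitotic genes, against 13.8% of all genes. It exceeded array 2 in both groups for 12 of 15, against 32.1% of all genes. The 9 were Mki67, Top2a, Cdk1, Ccna2, Ccnb2, Bub1, Aurkb, Birc5 and Cdc20. Averaged over both groups, array 3 exceeded array 1 by 1.09 log2 units for Birc5, 0.89 for Top2a, 0.74 for Cdc20 and 0.59 for Cdk1. These distances between arrays of the same treatment are larger than the difference between CMPF and vehicle for each of these 4 genes. TTTGAA was found in 5 of 7 of the genes in this group that had a promoter entry, and in 4 of 4 of the other measured mitotic genes that had one, so it did not mark the genes that shared the order.

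**Figure D2:**
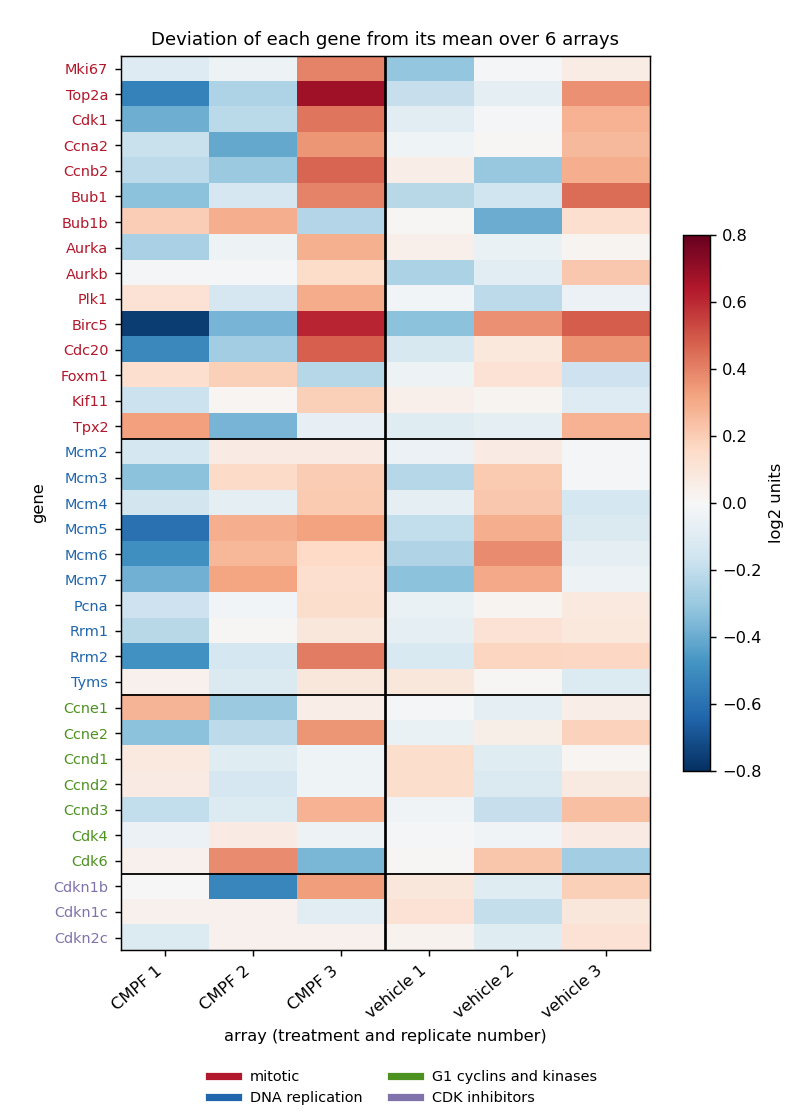
Deviation of each gene from its own mean over 6 arrays, in log2 units (colour, red higher and blue lower), with genes in rows by role and arrays in columns, CMPF left of the black line and vehicle right of it. Mitotic genes from Mki67 to Bub1 and Birc5 and Cdc20 are red on array 3 of both groups, while Mcm3, Mcm5, Mcm6 and Mcm7 are blue on array 1 and red on array 2 of both groups.

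None of the replication genes passed the test either, and their median difference was -0.0033, with pair medians of -0.11, -0.08 and 0.20. All 10 genes were lower with CMPF in pair 1 and higher with CMPF in pair 3, a combination that 28.2% of all genes showed and that 8 of 15 mitotic genes had as well. In pair 2, 9 of 10 were lower. The numbers were 9 of 10 with the median of each array subtracted, 8 of 10 after a second quantile normalization and 8 of 10 with the mean of all probe sets of a gene.

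Mcm6, a subunit of the replicative helicase, read 7.13, 7.88 and 7.77 with CMPF, against 7.38, 8.00 and 7.55 with vehicle (7.59 ± 0.41 and 7.64 ± 0.32, SD, n = 3 each; difference -0.05, SE 0.235). Array 1 was lowest and array 2 highest in both groups. Mcm5, another subunit, read 5.57, 6.46 and 6.49 with CMPF, against 5.97, 6.46 and 6.05 with vehicle, and its pairs differed by -0.40, -0.0013 and 0.44. Mcm7 read 7.78, 8.49 and 8.30 with CMPF, against 7.84, 8.47 and 8.13 with vehicle (difference 0.04, SE 0.220). For these 3 subunits the gap between arrays 1 and 2 of 1 treatment was wide and that between treatments small. Mcm2 stayed flatter, at 8.06, 8.27 and 8.27 with CMPF, against 8.15, 8.27 and 8.18 with vehicle (difference -0.0029, SE 0.0953).

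Pcna, the clamp that holds DNA polymerase on its template, read 10.67, 10.81 and 10.97 with CMPF, against 10.78, 10.85 and 10.91 with vehicle. The difference was -0.03 (SE 0.104), with a 95% interval from -0.28 to 0.21. Rrm1 and Rrm2 are the subunits of ribonucleotide reductase, which makes deoxynucleotides. Rrm1 read 6.89, 7.12 and 7.21 with CMPF, against 7.04, 7.23 and 7.20 with vehicle (difference -0.08, SE 0.112). Rrm2 read 6.50, 6.84 and 7.39 with CMPF, against 6.86, 7.15 and 7.15 with vehicle (difference -0.14, SE 0.218). In this brightest probe set Rrm2 thus had CMPF arrays 1 and 2 below every vehicle array and CMPF array 3 above, like Cdk1 and Top2a. A second Rrm2 probe set had the same order. The dimmest one read 5.60, 5.60 and 5.61 with CMPF, against 5.53, 5.51 and 5.48 with vehicle, so it was higher with CMPF in each pair. Tyms, thymidylate synthase, read 3.77, 3.62 and 3.83 with CMPF, against 3.83, 3.75 and 3.63 with vehicle, below the lower quartile of gene means. Mcm3 and Mcm4 differed by 0.02 and -0.0038.

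Array 2 lay above array 1 in both groups for 9 of 10 replication genes, all but Tyms, against 32.7% of all genes, and array 1 was the lowest of both groups for 8 of 10, against 14.8%. The mitotic genes did the same in 8 of 15 and 7 of 15, and the difference between the lists was not tested. Array 3 was highest in both groups for 1 of 10, Pcna, and for 9 of 15 mitotic genes. The gap between arrays 2 and 1, averaged over both groups, was 0.69 for Mcm5, 0.69 for Mcm6, 0.67 for Mcm7 and 0.46 for Mcm3. These are the 4 replication genes with E2F-type letters in their promoter windows. In the other 5 with a window the gap ran from -0.11 to 0.32. This match was noticed after the values were seen and was not tested. It also depends on the probe sets used. Mcm4, without a window here, had a gap of 0.18. Its second probe set read 6.43 and 7.26 on CMPF arrays 1 and 2, and 7.15 and 7.64 on vehicle arrays 1 and 2. A further Mcm3 probe set read 5.53 and 5.69 with CMPF, and 5.62 and 5.62 with vehicle. All 4 probe sets of Mcm7 had array 2 above array 1 in both groups.

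Set against each other on 1 array, mitotic and replication genes did not separate CMPF from vehicle. The mitotic median deviation minus the replication one was 0.10, -0.17 and 0.20 on CMPF arrays 1 to 3, against 0.01, -0.25 and 0.29 on vehicle arrays 1 to 3. The means were 0.04 ± 0.19 with CMPF and 0.02 ± 0.27 with vehicle (SD, n = 3 each), and the 3 numbers kept the same order in both groups.

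**Figure D3:**
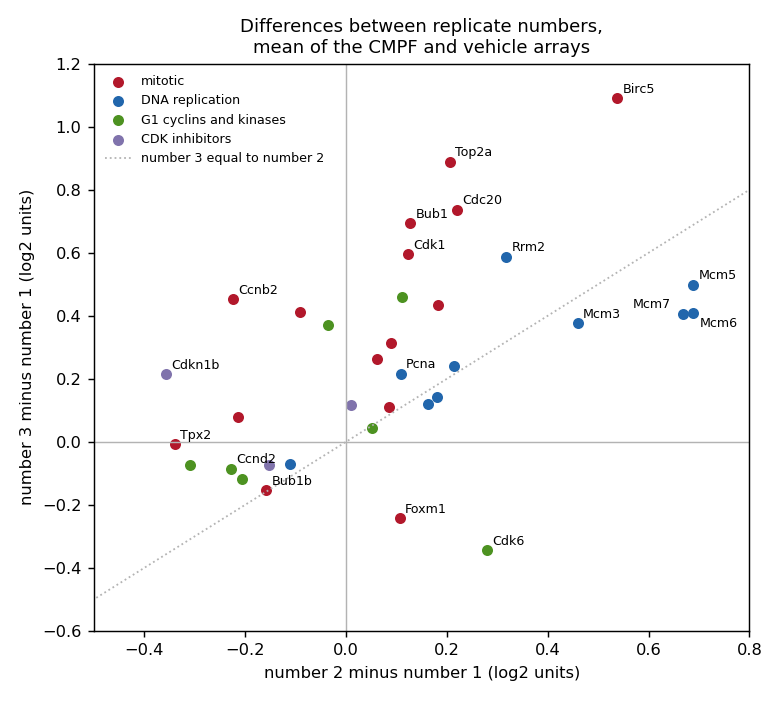
Each point is 1 gene: the horizontal axis is array 2 minus array 1 and the vertical axis array 3 minus array 1, in log2 units, each the mean of the CMPF and the vehicle array of that number. Birc5, Top2a, Cdc20, Bub1 and Cdk1 lie high above the dotted line, where array 3 exceeds array 2, and Mcm5, Mcm6 and Mcm7 lie to the right below it.

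Wider lists of the pathway were chosen with earlier results of these data known. Of 39 other mitotic genes 12 had array 3 highest in both groups, among them Nusap1, Prc1, Ube2c, Hmmr and Anln, beside the 13.8% of all genes. Of 34 other S phase genes 11 were lower with CMPF in pair 1 and higher in pair 3, near the 28.2% of all genes, and 13 had array 2 above array 1 in both groups, near the 32.7%. Median differences were -0.02 for the other mitotic and -0.02 for the other S phase genes. Whether the members differ from these lists was not tested.

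Limma called 0 genes of the other lists of the pathway, and at an unadjusted p under 0.05 it gave 1, Kif20a, of the 39 mitotic genes and 0 of the 34 S phase, 19 G1/S and 12 brake genes, against 1.13% of all genes. With the replicate block it gave 3 of 39 mitotic genes (Kif20a, Nuf2 and Anln), 2 of 34 S phase genes (Gins1 and Lig1), 2 of 19 G1/S genes (E2f2 and Myc) and 0 of 12 brakes, against 3.8% of all genes. Kif20a, a kinesin of cytokinesis, read 3.77, 3.61 and 4.14 with CMPF, against 4.09, 4.39 and 4.16 with vehicle (difference -0.37, SE 0.154, limma adjusted p = 0.99995), below the lower quartile of gene means. Smc4, a condensin subunit well above that level, read 7.91, 7.83 and 8.66 with CMPF, against 8.53, 8.41 and 8.52 with vehicle (difference -0.35, SE 0.212). It again had 2 CMPF arrays below all vehicle arrays and array 3 above. Cks1b, a small CDK subunit, read 10.75, 10.85 and 10.91 with CMPF, against 10.97, 11.05 and 10.92 with vehicle, without overlap (difference -0.14, SE 0.089). It was the 1 of 39 without overlap, where 2.11% of all genes lay wholly lower with CMPF. Nuf2, a kinetochore protein, differed by -0.41 (SE 0.235).

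Among the other S phase genes the smallest p values belonged to Gins1 (-0.31, SE 0.148), Chaf1b (0.28, SE 0.155), Lig1 (0.21, SE 0.127) and Mcm10 (0.14, SE 0.094). Gins1 is a part of the replication helicase complex and Lig1 joins DNA fragments, and their differences had opposite signs. Lig1 was higher with CMPF in all 3 pairs and Gins1 lower in all 3.

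Among the 7 G1 genes no difference exceeded 0.12 in size. Their median difference was -0.02, with pair medians of -0.07, 0.0018 and -0.05, and in all 7 the 95% interval stayed within 1.5-fold. Ccnd2, cyclin D2, read 12.44, 12.24 and 12.34 with CMPF, against 12.52, 12.26 and 12.44 with vehicle. It was lower with CMPF in each pair, by small steps (12.34 ± 0.10 and 12.41 ± 0.13, SD, n = 3 each; difference -0.06, SE 0.104; 95% interval -0.31 to 0.18). All 7 of its probe sets had a negative difference, but not all were lower in each pair, and all read the same RNA. Ccnd1, cyclin D1, read 9.81, 9.63 and 9.70 with CMPF, against 9.87, 9.63 and 9.75 with vehicle (difference -0.04, SE 0.099). Cdk4, the main kinase partner of D cyclins in beta cells, read 9.13, 9.24 and 9.13 with CMPF, against 9.16, 9.15 and 9.24 with vehicle. Its difference of -0.01 (SE 0.084) had a 95% interval from -0.21 to 0.18.

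Cdk6, the other kinase partner of D cyclins, read 6.80, 7.15 and 6.40 with CMPF, against 6.78, 6.99 and 6.49 with vehicle (difference 0.03, SE 0.207). Array 2 was highest and array 3 lowest in both groups, where 9 mitotic genes had array 3 highest. The E-type cyclins start S phase with Cdk2. Ccne1 read 6.25, 5.68 and 6.03 with CMPF, against 5.96, 5.91 and 6.03 with vehicle (difference 0.02, SE 0.146). A second Ccne1 probe set read 5.73, 5.35 and 5.82 with CMPF, against 5.81, 5.87 and 5.92 with vehicle. It was lower with CMPF in each pair (difference -0.24). Ccne2 read 5.32, 5.44 and 5.996 with CMPF, against 5.59, 5.69 and 5.83 with vehicle (difference -0.12, SE 0.180), the same order as Cdk1. Ccnd3 differed by -0.02.

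Of the CDK inhibitors, Cdkn1b, which encodes p27, read 8.77, 8.24 and 9.10 with CMPF, against 8.86, 8.67 and 8.96 with vehicle (difference -0.13, SE 0.209). CMPF array 2 was the lowest of the 6 and CMPF array 3 the highest, as in Ccna2. Cdkn1c, which encodes p57, read 5.58, 5.57 and 5.46 with CMPF, against 5.66, 5.35 and 5.63 with vehicle (difference -0.0098, SE 0.109). Cdkn2c, which encodes the Cdk4 and Cdk6 inhibitor p18, read 7.81, 7.95 and 7.96 with CMPF, against 7.95, 7.82 and 8.03 with vehicle (difference -0.03, SE 0.096). In the probe sets used, the pairs differed in sign for all 3 inhibitors. A dimmer Cdkn1b probe set, just above the lower quartile of gene means, went the other way (difference 0.31). It read 4.97, 4.50 and 4.83 with CMPF, against 4.62, 3.99 and 4.77 with vehicle, so it was higher with CMPF in each pair.

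Other regulators gave 9 of 19 positive differences in the G1/S list and 7 of 12 in the list of brakes, with medians of -0.02 and 0.04. Myc, a growth-promoting transcription factor, read 7.44, 7.69 and 7.35 with CMPF, against 7.27, 7.38 and 7.14 with vehicle (difference 0.23, SE 0.119). It was higher with CMPF in all 3 pairs, by 0.16, 0.31 and 0.22, and the groups overlapped on 1 array. E2f2 and E2f4, of the E2F family, differed by 0.27 (SE 0.128) and 0.20 (SE 0.098), and Ccna1, a germline cyclin, by -0.15 (SE 0.084). The groups did not overlap for E2f4, higher with CMPF, and Ccna1, lower. These were 1 of 19 G1/S genes in each direction, where 2.41% of all genes lay wholly higher and 2.11% wholly lower. E2f2, E2f4 and Ccna1 all lay below the median gene mean. Among the brakes, Cdkn2a differed by 0.16 (SE 0.100), Cdkn2b by 0.15 (SE 0.149), Men1, menin, by 0.12 (SE 0.095) and Gadd45a by -0.15 (SE 0.112).

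Markers of several other cell types varied along the same array numbers. In bulk RNA, fewer cells of a type and less RNA per cell cannot be told apart. Of 10 stellate cell and fibroblast markers 7 had array 3 highest in both groups, against 13.8% of all genes. As the replication genes were, 10 of 10 were lower with CMPF in pair 1 and higher in pair 3, against 28.2% of all genes. Their summed signal on the linear scale ran from 7044 to 17022 with CMPF and from 9450 to 14283 with vehicle, highest on array 3 of each group. Col1a1, a collagen chain, read 8.36, 8.35 and 9.82 with CMPF, against 9.04, 8.88 and 9.47 with vehicle. CMPF arrays 1 and 2 lay below every vehicle array and CMPF array 3 above every one, as for Cdk1 and Ccna2.

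Endothelial markers had array 3 highest in both groups in 6 of 10 (13.8% of all genes) and array 1 lowest in 10 of 10 (14.8% of all genes). Their summed signals ran from 859 to 1413 with CMPF and from 972 to 1251 with vehicle. Macrophage markers had array 3 highest in 6 of 10, and their median deviation was highest on array 3, at 0.18 with CMPF and 0.13 with vehicle. Their sums ran from 1851 to 2751 with CMPF and from 1823 to 2811 with vehicle. The sums were highest on array 2 of both groups, and with vehicle array 3 had the lowest. Bright genes weigh most in a sum, and Cd14 was the 1 of 10 with array 2 highest in both groups. It read 8.95, 10.57 and 9.03 with CMPF, against 8.94, 10.51 and 8.40 with vehicle. Array 2 exceeded array 1 in both groups in 12 of 12 acinar markers and 6 of 7 duct markers, against 32.7% of all genes. Lymphocyte markers did so in 1 of 6. Array 3 was highest in both groups for 0 of 6 lymphocyte, 0 of 3 alpha cell and 1 of 4 delta and PP cell markers. The acinar sums ran from 71046 to 131857 with CMPF and from 41951 to 125371 with vehicle, and the duct sums from 16594 to 23630 with CMPF and from 14192 to 22553 with vehicle. All 12 acinar markers had a positive difference, with a median of 0.43, and none passed the test. Higher with CMPF in all 3 pairs were 9 of 12 acinar and 4 of 10 endothelial markers, against 11.8% of all genes. At an unadjusted limma p under 0.05 with the replicate block there were 6 of 12 acinar and 4 of 10 endothelial markers, against 3.8% of all genes, and 0 passed adjustment. Below the lower quartile of gene means lay 0 of 10 stellate, 2 of 10 endothelial, 0 of 10 macrophage, 0 of 12 acinar, 1 of 7 duct and 3 of 6 lymphocyte markers. No marker was at 0, which does not show detection, since the values hold no detection call. The part of any of these cell types in the members' order was not tested. All 8 measured beta cell markers, Ins2 among them, lay above the median gene mean. Their median deviation was highest on array 1, where the replication genes were lowest, at 0.24, -0.17 and -0.11 on CMPF arrays 1 to 3, against 0.20, -0.13 and 0.03 on vehicle arrays 1 to 3.

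**Figure D4:**
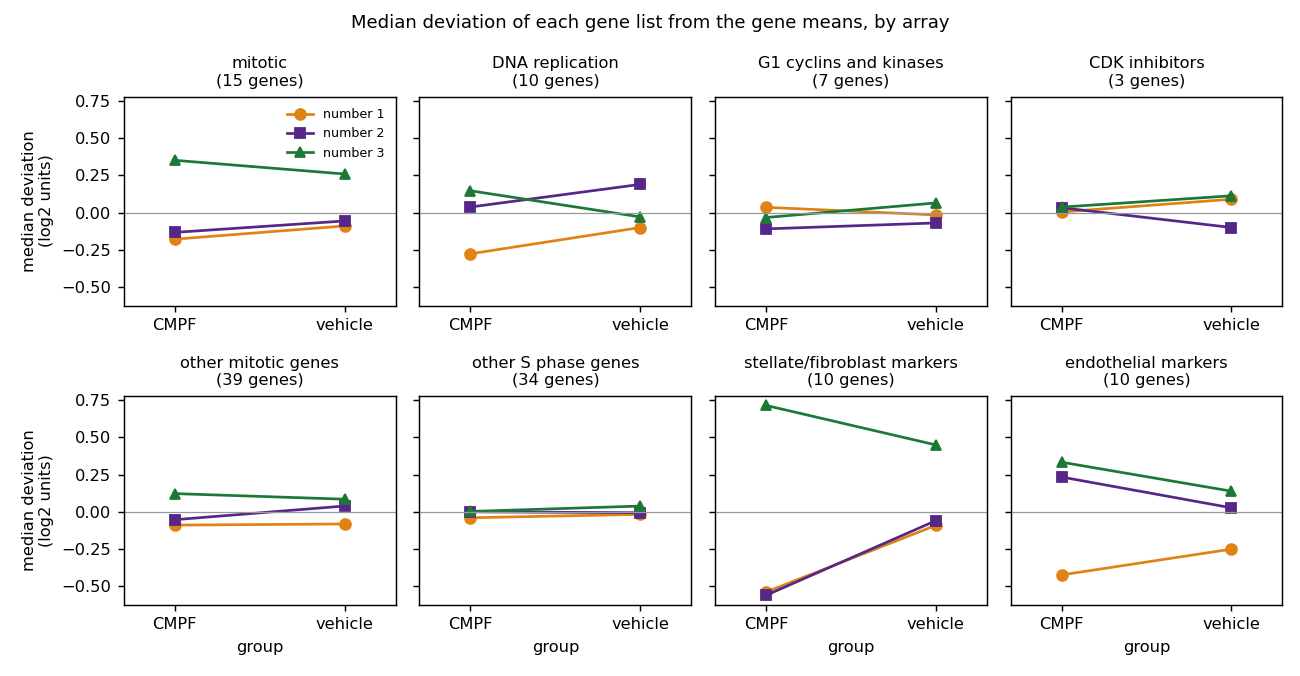
Median deviation of each list's genes from their own means, in log2 units, on the CMPF and the vehicle array of each number, joined by lines. The mitotic and the stellate or fibroblast panels have number 3 on top in both groups, the replication panel has number 1 at the bottom in both groups, and the panel of other S phase genes stays near 0.

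Probe sets of the same gene often disagreed at this size of difference. Of the 26 members with several probe sets, 6 had differences of 1 sign in all of them and 20 had both signs. For the replication genes, 20 of 30 probe sets had array 2 above array 1 in both groups, against 31.4% of all single-gene probe sets, and 21 of 30 were lower with CMPF in pair 1 and higher in pair 3, against 26.9%. All 4 probe sets of Mcm7 had array 2 above array 1 in both groups. For the mitotic genes 15 of 33 probe sets had array 3 highest in both groups, against 12.9%. A second probe set of Ccna2 read 5.16, 5.68 and 6.07 with CMPF, against 5.33, 5.60 and 5.91 with vehicle, also highest on array 3. There CMPF array 2 lay above vehicle arrays 1 and 2, unlike in the brightest probe set, and the difference was 0.02. A dimmer probe set of Bub1b read 4.07, 4.22 and 4.54 with CMPF, against 4.20, 4.15 and 4.41 with vehicle. It was highest on array 3 in both groups, which the brightest was not, but lay below the lower quartile of gene means. The third, also below that level, read 3.66, 3.97 and 3.78 with CMPF, against 3.51, 3.77 and 3.99 with vehicle. It was not highest on array 3 in both groups.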

How the data were processed

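Expression was measured on 6 Affymetrix mouse arrays, 3 with CMPF and 3 with vehicle. The log2 values were deposited by the authors, whose tool, per the submitters' processing notes, was RMA (Affymetrix Expression Console 1.1). Its settings were not given in the sources used. RMA brings all arrays to 1 distribution and gives no detection call. Array medians lay between 5.08 and 5.15 and the number of arrays limits the precision. No value column lacked a sample.

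Of 45101 probe sets, 64 controls, 932 with several genes and 9160 unnamed ones were left out. The platform annotation named the other 34945, and 34741 matched RefSeq by Entrez ID. Each of 18193 genes was read by its brightest single-gene probe set, with no filter. The limma 3.58.1 functions lmFit and eBayes, in R 4.3.3, compared CMPF with vehicle. Tests were two-sided and Benjamini-Hochberg adjustment covered all genes, at 0.05. The fit was tested on simulated data. Alternatives were a replicate block, leaving out arrays or pairs, other scalings, probe set means, filters, array weights and a variance trend. Deviations from group means correlated at 0.488 to 0.638 between arrays of the same number and at -0.555 to 0.0885 between others, so the numbers were taken to pair the arrays, from the data.

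The members and lists were chosen with earlier results of these data known. Array values are given for the 20 measured members fixed by name and 6 others with the smallest p, and up to 4 genes a list are named by p. Values of Mcm5, Mcm7, Col1a1 and the further probe sets were chosen after being seen, as were the lists of genes that share an order. Promoter windows for Aurkb, Ccna2, Ccnd1, Ccnd2, Ccne2, Cdkn1c, Foxm1, Mcm4 and Tpx2 were not used here, nor were Chaf1a, Sgol1 and Trp53 analysed here.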

Additional observations from a re-analysis of the deposited data

How the results depend on the processing

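The count of members past the threshold was 0, and that of all genes 0, under each of 17 alternatives, and 0 of 571 member differences under them moved by more than 1 SD. The sign turned in 110 of these, so the 1 SD bound does not show that directions were stable. That bound could hardly be passed, so the 0 is no sign of robustness. The replicate block, the filters and the variance trend leave a difference unchanged. Leaving out 1 array moves a group mean by less than that group's SD. The sign turned at least once in 30 members, and 5 kept it: Birc5, Ccnd2, Cdc20, Mki67 and Plk1. Birc5, Mki67 and Plk1 have 1 probe set each, so probe set means could not turn their sign. Leaving out arrays or pairs gave between 0 and 6 members at an unadjusted p under 0.05. It gave medians from -0.15 to 0.11 for mitotic genes (0.11 without CMPF 1), from -0.11 to 0.07 for replication genes, from -0.10 to 0.0066 for G1 genes (-0.10 without vehicle 2 and -0.056 without pair 2), from -0.11 to 0.02 for inhibitors and from -0.08 to 0.05 for all members, and from -0.10 to 0.13 for mitotic minus replication. Members higher in all 3 pairs numbered 1, but 3 with probe set means, 2 after a second quantile normalization and 0 with the filter at the median gene mean. Those lower in all 3 numbered 1, but 2 with probe set means, 3 with median centring and 2 after a second quantile normalization. With the filter at the median gene mean 0 mitotic genes had array 3 highest in both groups, since it leaves only Foxm1. The replicate block changed no call, with 0 members and 0 genes past the threshold, and lowered the members' median standard error to 0.1003. Depth cannot be given for arrays, and signal over background is unknown. The alternatives for the shared orders were chosen after seeing the data. Orders that need all 3 numbers could not be recomputed without an array.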
